A study of Mus musculus with 24 samples.

Results

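p53 (Trp53) and 9 genes that p53 is known to switch on (Cdkn1a, Mdm2, Bax, Bbc3, Pmaip1, Ccng1, Trp53inp1, Sesn2 and Phlda3) were followed in mouse peritoneal metastases treated with short-chain fatty acids. The 10 genes were picked by name from the deposited table, with all rows of a gene name added together. They are 10 of 56422 gene names in the table and 10 of 15163 genes that were tested. p53 is a transcription factor that cells hold at low protein levels until DNA damage or another stress stabilises it. It then raises transcription of genes that stop the cell cycle, trigger apoptosis or restrain metabolism, and of Mdm2, the ubiquitin ligase that returns p53 to degradation. Because p53 is controlled mainly as a protein, the level of Trp53 RNA does not by itself report p53 activity. Cdkn1a has a second route of control: in cultured cells, butyrate and other inhibitors of histone deacetylases raise it through GC-rich elements near its start, also without p53.

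RNA was measured in 24 samples of peritoneum, with 6 in each of 4 groups: propionate, butyrate, the combination of both acids, and no treatment (control). The series' title places the work in a study of mannose, anti-PD-1 therapy and ovarian cancer, but the labels of these samples name no mannose, no antibody, no tumour line, no mouse strain or age, and no dose or duration. The labels do not say whether the 6 samples of a group came from separate animals, so the p-values below measure the spread between samples and no more. The values are TPM, transcript abundance per length and scaled to the same total in every library. The depth behind them is unknown, because TPM keeps none, and 12618 to 15418 genes reached 1 TPM in a library.

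The 2 starts of Cdkn1a in the promoter table are shown first, because letter matches to the kinds of element named for both routes of control occur there. RefSeq (GRCm38.p6, plus strand) places the upstream start in chr17:29090729-29091028 and the downstream start in chr17:29093519-29093818. Each window runs from 250 bases before the start to 50 bases after it. Capitals mark, in the upstream window, the letters CATG standing on either side of 6 other bases, the core of a p53 response element, and GGGCGG, the GC box, in the downstream window.
Cdkn1a upstream start: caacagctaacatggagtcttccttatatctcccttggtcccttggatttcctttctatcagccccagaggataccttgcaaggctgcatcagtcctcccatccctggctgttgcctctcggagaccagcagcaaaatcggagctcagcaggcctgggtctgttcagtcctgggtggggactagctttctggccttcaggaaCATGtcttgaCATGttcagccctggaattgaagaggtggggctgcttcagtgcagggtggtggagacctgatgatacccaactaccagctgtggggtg
Cdkn1a downstream start: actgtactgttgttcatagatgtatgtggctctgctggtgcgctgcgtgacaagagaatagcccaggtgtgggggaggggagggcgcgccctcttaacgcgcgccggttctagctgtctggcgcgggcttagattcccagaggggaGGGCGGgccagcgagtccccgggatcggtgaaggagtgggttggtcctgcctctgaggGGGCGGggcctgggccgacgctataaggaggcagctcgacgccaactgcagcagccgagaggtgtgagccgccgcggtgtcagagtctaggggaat
The upstream window held 1 such pair of core letters, ending 34 bases before the start, and no GC box on either strand. The downstream window held 2 GC boxes, the first of them 104 bases before the start, and no such pair. Of 32851 promoter windows of the same length in the table, 234 (0.712%) held the pair and 11714 (35.7%) held GGGCGG or its complement CCGCCC. For 8 of the 10 genes the table gave 11 windows. The pair occurred in 1 of these windows, that of Cdkn1a, and the GC box in 8 windows, of Bax, Bbc3, Cdkn1a, Mdm2, Phlda3 and Sesn2. These are matches of letters and not measured binding. The deposited table names a row by its gene alone, so it does not tell which Cdkn1a start was in use.

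The genes differed widely in level. Over the 24 libraries the median was 230.5 TPM for Ccng1 (cyclin G1), 60.8 TPM for Phlda3, 37.3 TPM for Cdkn1a, 30.2 TPM for Bax, 25.0 TPM for Trp53 and 21.9 TPM for Mdm2. Trp53inp1 had a median of 9.13 TPM, Bbc3 3.04 TPM, Sesn2 1.87 TPM and Pmaip1 1.57 TPM. All 10 passed the filter of 1 TPM in at least 6 libraries. The least abundant did so in part of the libraries only: Bbc3 and Sesn2 reached 1 TPM in 20 libraries each and Pmaip1 in 16. In the control samples, the order by median was Ccng1, Trp53, Phlda3, Cdkn1a, Bax, Mdm2, Trp53inp1, Bbc3, Sesn2 and Pmaip1. Most neighbours in that order had overlapping ranges. The exceptions were Ccng1, whose lowest control value of 104.95 TPM lay above the highest of Trp53, 92.59 TPM, and Mdm2, whose lowest value of 21.19 TPM lay above the highest of Trp53inp1, 20.38 TPM. The spread over libraries also differed by gene. The highest library stood at 1.77 times the lowest for Mdm2 and at 2.21 times the lowest for Cdkn1a, against 9.81 times for Trp53, 14.4 times for Bbc3 and 52.4 times for Pmaip1.

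**Figure D1:**
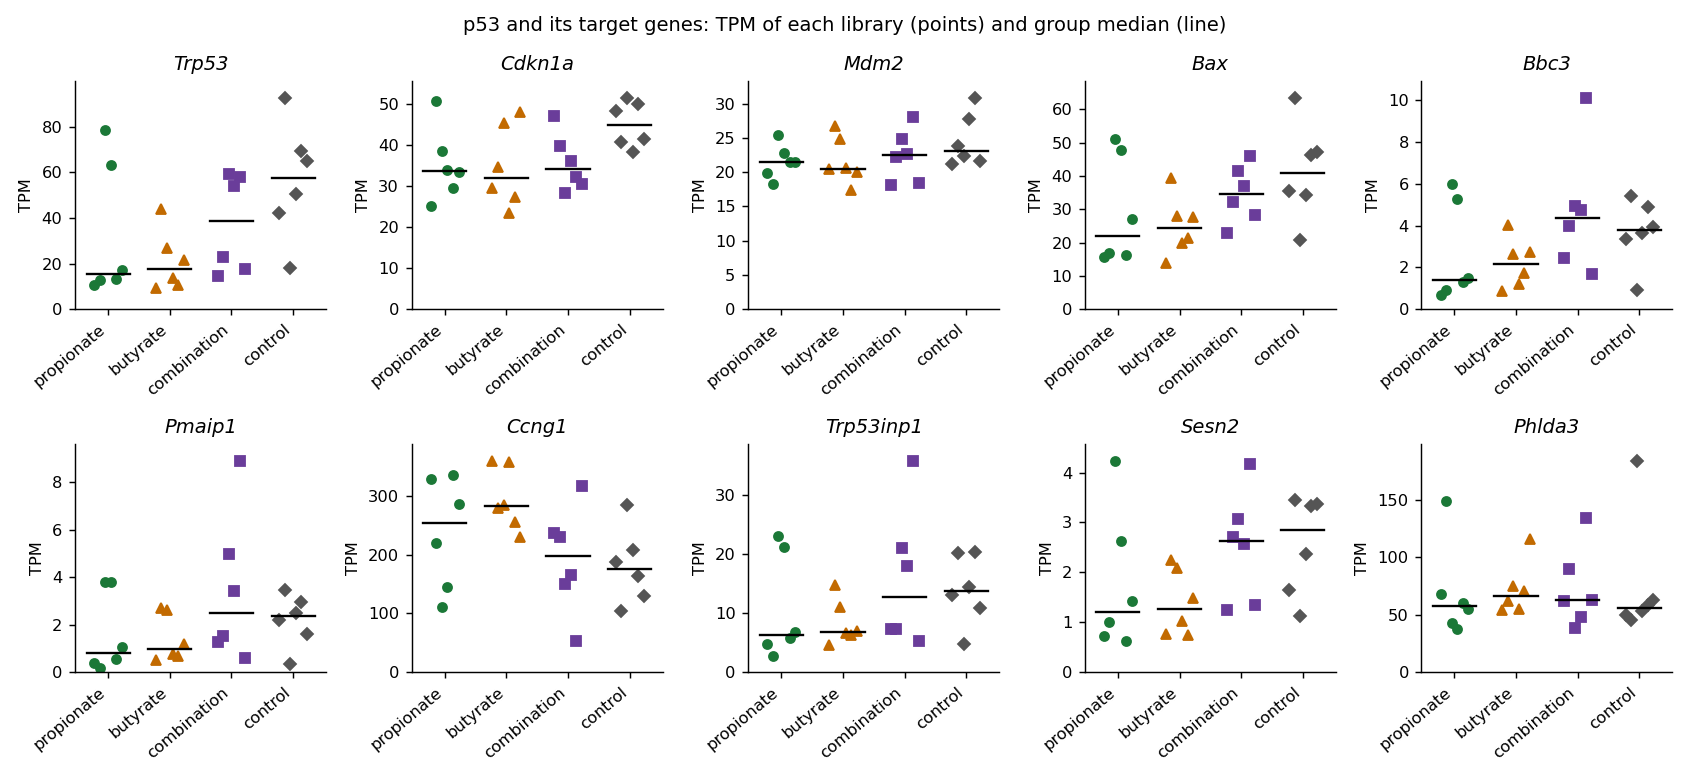
TPM of each of the 10 genes in every library (points), by group (propionate, butyrate, combination, control), with the group median as a line and each vertical axis starting at 0. The groups overlap in every panel; 2 propionate samples stand above the other 4 for Trp53, Bax, Bbc3, Pmaip1 and Trp53inp1, and the 6 control samples of Cdkn1a lie between 38.49 and 51.6 TPM.

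Before the groups are compared, the make-up of the tissue pieces has to be described, because several of these genes ran with it. Wt1, a transcription factor of mesothelium and of many ovarian carcinomas, was at 131 to 368 TPM in 10 libraries and at 0.37 to 71.4 TPM in 13. The 10 Wt1-rich libraries comprised 2 of 6 propionate, 1 of 6 butyrate, 2 of 6 combination and 5 of 6 control samples. Krt8, an epithelial keratin, was at 95.6 to 292 TPM in these 10 and at 0.3 to 47.8 TPM in the 13. Ckm, the muscle creatine kinase, was at 2663 to 9320 TPM in the 10 and at 8011 to 15319 TPM in the 13, so muscle RNA was abundant in both sets, although the tissue is labelled peritoneum. Over the mesothelium list of 7 genes, the mean log2(TPM + 1) was 3.01 ± 1.71 in propionate, 2.75 ± 1.14 in butyrate, 2.65 ± 1.92 in combination and 4.38 ± 1.68 in control samples (SD, n = 6 each). Over the muscle list of 12 genes it was 11.7 ± 0.94, 11.9 ± 0.25, 9.88 ± 4.37 and 11.4 ± 0.76 in the same order. Of 7 epithelial and carcinoma markers, 5 passed the filter, while Epcam and Pax8 did not. Combination sample 5 stood apart from all others: Wt1 was listed at 0, Ckm was at 0.78 TPM, and the mean log2 level was 7.98 for B cell genes and 6.29 for T cell genes. Its Krt8, at 122.98 TPM, lay within the range of the Wt1-rich libraries. The B cell level rests on 2 of 5 listed genes, because the others did not pass the filter. In pieces of whole tissue, fewer cells of a type and less RNA per cell cannot be told apart.

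Trp53 separated the Wt1-rich libraries from the rest without overlap. It was at 42.3 to 92.6 TPM in the 10 Wt1-rich libraries and at 9.44 to 26.95 TPM in the 13 others, with 57.89 TPM in combination sample 5. Bax, which encodes a protein that permeabilises mitochondria in apoptosis, was split in the same way, with 34.4 to 63.5 TPM against 13.99 to 32.25 TPM and 46.11 TPM in combination sample 5. Mki67, a proliferation marker outside the p53 set, showed the same separation, with 7.47 to 22.48 TPM against 0.22 to 4.52 TPM. Bbc3 and Pmaip1, which encode the BH3-only apoptosis inducers PUMA and NOXA, had higher medians in the Wt1-rich libraries with overlapping ranges, 4.82 against 1.48 TPM for Bbc3 and 3.18 against 0.68 TPM for Pmaip1. The medians were 19.05 against 6.3 TPM for Trp53inp1 and 2.85 against 1.12 TPM for Sesn2, also with overlap. Ccng1 ran the other way, at a median of 157 TPM in the Wt1-rich libraries and 286 TPM in the others. Phlda3 did so too, at 48.8 against 68.0 TPM. Cdkn1a covered nearly the same range in both, 28.39 to 50.1 TPM and 23.4 to 51.6 TPM. Combination sample 5 had the highest level of all 24 libraries for Bbc3 (10.09 TPM), Pmaip1 (8.91 TPM) and Trp53inp1 (35.9 TPM) and the lowest for Ccng1 (52.77 TPM). These ranges describe libraries sorted by 1 marker after the values were seen, and no test was made on them. How many of all genes tested split without overlap was not counted, so the split is not shown to be particular to Trp53 and Bax.

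**Figure D2:**
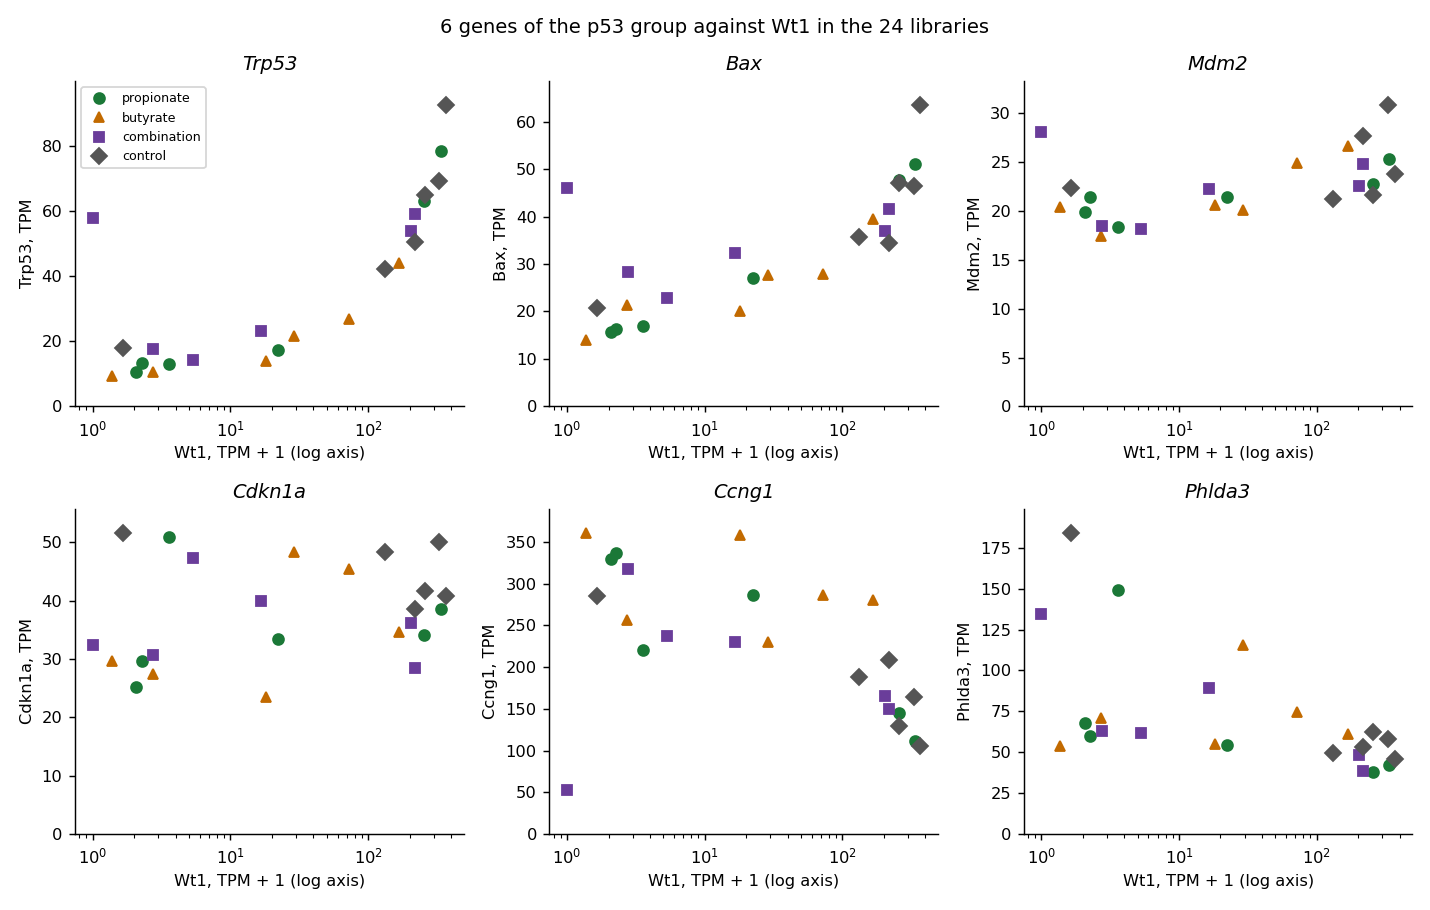
TPM of 6 of the 10 genes (vertical axes, from 0) against Wt1 (TPM + 1, log axis) in the 24 libraries, coloured by group. Trp53 and Bax are higher in all 10 libraries with 131 TPM of Wt1 or more than in the 13 below 71.5 TPM. Ccng1 is mostly lower in these 10, and Cdkn1a shows no separation. The combination sample with Wt1 at 0 stands apart on the left. The libraries were sorted after the values were seen. How many of all genes tested split in this way was not counted.

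None of the 10 genes passed the test in any of the 7 comparisons made (limma, Benjamini-Hochberg adjusted p under 0.05 over all 15163 genes). Of all genes tested, 0% passed in each of the 7 comparisons, and the smallest adjusted p over all genes was 0.333 for propionate, 0.115 for butyrate and 0.172 for the combination against control. The sizes and intervals are therefore given as estimates. Leaving out control sample 3, which holds 0.65 TPM of Wt1 and is the 1 control library outside the Wt1-rich set, let 3 of the 10 genes pass with butyrate (Trp53, Bax and Ccng1), beside 5654 of all genes. Weights estimated per library let 9 of the 10 pass with propionate and 9 with butyrate, beside 11434 and 10256 of all genes. A block by library number let 4 of the 10 pass with butyrate and 5 for the interaction, beside 7903 and 5426 of all genes. No label says that this number marks a batch. Against control, 9 of the 10 genes were below 0 in propionate samples, where 79.3% of all genes tested were below 0. In butyrate samples 8 of 10 were below 0, against 78.8% of all genes, and in combination samples 6 of 10, against 65.9%. The median log2 difference of the 10 genes was -0.43 for propionate, -0.47 for butyrate and -0.02 for the combination, beside -0.30, -0.38 and -0.12 over all genes. At an unadjusted p under 0.05, none of the 10 genes was lower or higher in propionate samples, where 9.13% of all genes were lower and 0.435% higher. In butyrate samples 3 of the 10 (Trp53, Cdkn1a and Bax) were lower and 1 (Ccng1) was higher at that level, beside 35.1% and 1.19% of all genes. In combination samples none was, beside 4.1% lower and 6.2% higher. The split of directions follows the scaling: after scaling by median of ratios, 7, 6 and 4 of the 10 genes were below 0 in propionate, butyrate and combination samples, beside 50.3%, 51.3% and 54.5% of all genes, and after quantile normalization 7, 6 and 3 were, beside 45.1%, 47.1% and 49.4%. The 3 of 10 genes lower with butyrate are close to the share over all genes.

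Trp53 ran at 10.48, 15.29 and 78.46 TPM (lowest, median and highest sample) in propionate samples, at 9.44, 17.7 and 44.15 TPM in butyrate samples and at 14.39, 38.5 and 59.2 TPM in combination samples, against 18.08, 57.6 and 92.59 TPM in control samples. In the propionate group 4 samples were at 17.29 TPM or less and 2 at 63.24 TPM or more, in the combination group 3 were at 23.08 TPM or less and 3 at 54.01 TPM or more, and control sample 3 lay far below the other 5. The log2 difference was -1.07 ± 0.52 (SE) for propionate (95% interval -2.15 to 0.01, adjusted p = 0.333), -1.41 ± 0.52 for butyrate (-2.49 to -0.33, adjusted p = 0.115) and -0.63 ± 0.52 for the combination (-1.71 to 0.45, adjusted p = 0.621). With the muscle and mesothelium levels of each library as covariates, the same differences were -0.34, -0.50 and -0.12. In the muscle covariate, combination sample 5 was at 1.02 and all other libraries at 10.1 to 12.7. This 1 library therefore weighs heavily on each covariate value given here, and the covariate fit was not run without it. Whether the acids themselves changed the tissue make-up was not tested. Without control sample 3 the difference of Trp53 for butyrate was -1.70 (adjusted p = 0.0296). Mdm2, the feedback inhibitor of p53, hardly varied. It averaged 21.5 ± 2.41 TPM in propionate, 21.7 ± 3.44 TPM in butyrate and 22.4 ± 3.80 TPM in combination samples, and 24.6 ± 3.87 TPM in control samples (SD, n = 6 each). Its log2 difference from control was -0.18 ± 0.13 for propionate, -0.17 ± 0.13 for butyrate and -0.13 ± 0.13 for the combination, with adjusted p from 0.316 to 0.675. The 95% intervals, -0.45 to 0.10, -0.45 to 0.10 and -0.41 to 0.14, are the narrowest of the 10 genes. The direction for Mdm2 turned with scaling: the difference was 0.17 for propionate and 0.25 for butyrate after scaling by median of ratios, and 0.17, 0.31 and 0.0182 for propionate, butyrate and the combination after quantile normalization.

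Cdkn1a, which encodes p21, the inhibitor of cyclin-dependent kinases that carries much of the arrest downstream of p53, was at 25.24, 33.8 and 50.87 TPM in propionate samples (lowest, median and highest), at 23.4, 32.15 and 48.26 TPM in butyrate samples and at 28.39, 34.3 and 47.26 TPM in combination samples, against 38.49, 45.0 and 51.6 TPM in control samples. The mean of each acid group was below that of the controls in the TPM as deposited, and the ranges overlapped. It averaged 35.3 ± 8.84, 34.8 ± 10.1 and 35.8 ± 6.96 TPM in propionate, butyrate and combination samples and 45.2 ± 5.51 TPM in control samples (SD, n = 6 each). A propionate sample exceeded a control sample in 6 of 36 pairs, a butyrate sample in 6 of 36 and a combination sample in 4 of 36. The log2 difference was -0.37 ± 0.18 for propionate (95% interval -0.74 to 0.00, adjusted p = 0.333), -0.40 ± 0.18 for butyrate (-0.78 to -0.03, adjusted p = 0.122) and -0.34 ± 0.18 for the combination (-0.71 to 0.03, adjusted p = 0.508). The sign for butyrate did not hold under other scalings, where the difference was 0.0295 (median-of-ratios) and 0.0397 (quantile normalization), while that for propionate was -0.0138 and -0.0757 and that for the combination -0.24 and -0.22. Under those scalings the median of all genes was -0.0142 and 0.0337 for butyrate, in place of -0.38. With the tissue levels as covariates the differences were -0.39, -0.43 and -0.34 (adjusted p = 0.688, 0.204 and 0.464). Among the Wt1-rich libraries, Cdkn1a was at 28.39 to 38.57 TPM in the 5 acid-treated ones and at 38.49 to 50.1 TPM in the 5 controls. That description was chosen after the values were seen and uses TPM as deposited. Trp53 was at 44.15 to 78.46 TPM and at 42.32 to 92.59 TPM in the same sets. How many of all genes come this close to separating was not counted.

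Ccng1, a p53 target that encodes cyclin G1, was at 111.26, 253.6 and 336.84 TPM in propionate samples, at 230.47, 283 and 360.78 TPM in butyrate samples and at 52.77, 198 and 317.84 TPM in combination samples, against 104.95, 176 and 284.69 TPM in control samples. It averaged 295 ± 53.3 TPM in butyrate and 180 ± 63.7 TPM in control samples (SD, n = 6 each), and a butyrate sample exceeded a control sample in 33 of 36 pairs. Ccng1 was the gene of the 10 with the largest positive difference in propionate and in butyrate samples. The log2 difference was 0.36 ± 0.35 for propionate (adjusted p = 0.494), 0.77 ± 0.35 for butyrate (95% interval 0.04 to 1.49, adjusted p = 0.127) and -0.02 ± 0.35 for the combination (adjusted p = 0.981). With the tissue covariates these were 0.0651, 0.38 and 0.0509. Without control sample 3 the difference for butyrate was 0.91 (adjusted p = 0.0497). Without combination sample 5, in which Ccng1 was at 52.77 TPM, the difference for the combination was 0.31.

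Bax, Bbc3 and Pmaip1 act in the mitochondrial route of apoptosis. Bax averaged 29.2 ± 16.3 TPM in propionate, 25.1 ± 8.77 TPM in butyrate and 34.7 ± 8.63 TPM in combination samples, and 41.3 ± 14.5 TPM in control samples (SD, n = 6 each). Its log2 difference from control was -0.58 ± 0.31 for propionate (adjusted p = 0.333), -0.69 ± 0.31 for butyrate (95% interval -1.33 to -0.05, adjusted p = 0.124) and -0.20 ± 0.31 for the combination (adjusted p = 0.783). With the tissue covariates it was -0.17, -0.18 and 0.079. Without control sample 3 the difference for butyrate was -0.87 (adjusted p = 0.0361). Bbc3 ran at 0.70, 1.38 and 6.00 TPM in propionate, at 0.86, 2.17 and 4.03 TPM in butyrate and at 1.69, 4.37 and 10.09 TPM in combination samples, against 0.92, 3.79 and 5.39 TPM in control samples. Pmaip1 ran at 0.17, 0.805 and 3.81 TPM, at 0.50, 0.95 and 2.71 TPM and at 0.58, 2.48 and 8.91 TPM in the same 3 groups, against 0.32, 2.34 and 3.47 TPM in control samples. For both, the highest of all libraries was combination sample 5 and the lowest a propionate sample. The log2 differences of Bbc3 were -0.53 ± 0.39, -0.54 ± 0.39 and 0.22 ± 0.39 for propionate, butyrate and the combination, and those of Pmaip1 were -0.42 ± 0.44, -0.40 ± 0.44 and 0.30 ± 0.44, with adjusted p from 0.296 to 0.819. With the tissue covariates they were -0.0495, 0.0609 and 0.42 for Bbc3 and 0.11, 0.27 and 0.49 for Pmaip1, so the sign for butyrate turned for both and that for propionate for Pmaip1. Without combination sample 5, the values for the combination were near 0 for both genes. On the log2(TPM + 1) scale, differences of genes as low as these 2 are understated.

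Trp53inp1, which encodes a stress protein that promotes p53-dependent death and autophagy, was at 2.75, 6.29 and 23.06 TPM in propionate samples, at 4.56, 6.77 and 14.86 TPM in butyrate samples and at 5.21, 12.7 and 35.9 TPM in combination samples, against 4.71, 13.8 and 20.38 TPM in control samples. Its log2 difference was -0.57 ± 0.48 for propionate, -0.64 ± 0.48 for butyrate and 0.00 ± 0.48 for the combination (adjusted p = 0.431, 0.310 and 0.999). Without combination sample 5 the last of these was -0.28. With the tissue covariates the 3 differences of Trp53inp1 were 0.0206, 0.11 and 0.25, above 0 in each group. Sesn2, which encodes sestrin 2, a stress protein that restrains mTORC1, averaged 1.78 ± 1.41 TPM in propionate, 1.39 ± 0.657 TPM in butyrate and 2.52 ± 1.10 TPM in combination samples, and 2.55 ± 0.999 TPM in control samples (SD, n = 6 each). Its log2 difference was -0.44 ± 0.29, -0.56 ± 0.29 and -0.02 ± 0.29 in those groups (adjusted p = 0.343, 0.152 and 0.977), and -0.0944, -0.13 and 0.17 with the tissue covariates. Phlda3, which encodes a pleckstrin-homology protein that competes with Akt for membrane lipids, was at 37.75, 57.4 and 149.1 TPM in propionate samples, at 53.68, 66.2 and 115.47 TPM in butyrate samples and at 38.69, 62.4 and 134.37 TPM in combination samples, against 45.67, 55.5 and 184.06 TPM in control samples. In the control group a single sample, number 3, was at 184.06 TPM and the other 5 were at 62.31 TPM or less. The log2 difference of Phlda3 was -0.10 ± 0.35 for propionate, 0.08 ± 0.35 for butyrate and 0.02 ± 0.35 for the combination, with adjusted p from 0.864 to 0.981. Scaling or the tissue covariates turned each of these signs.

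**Figure D3:**
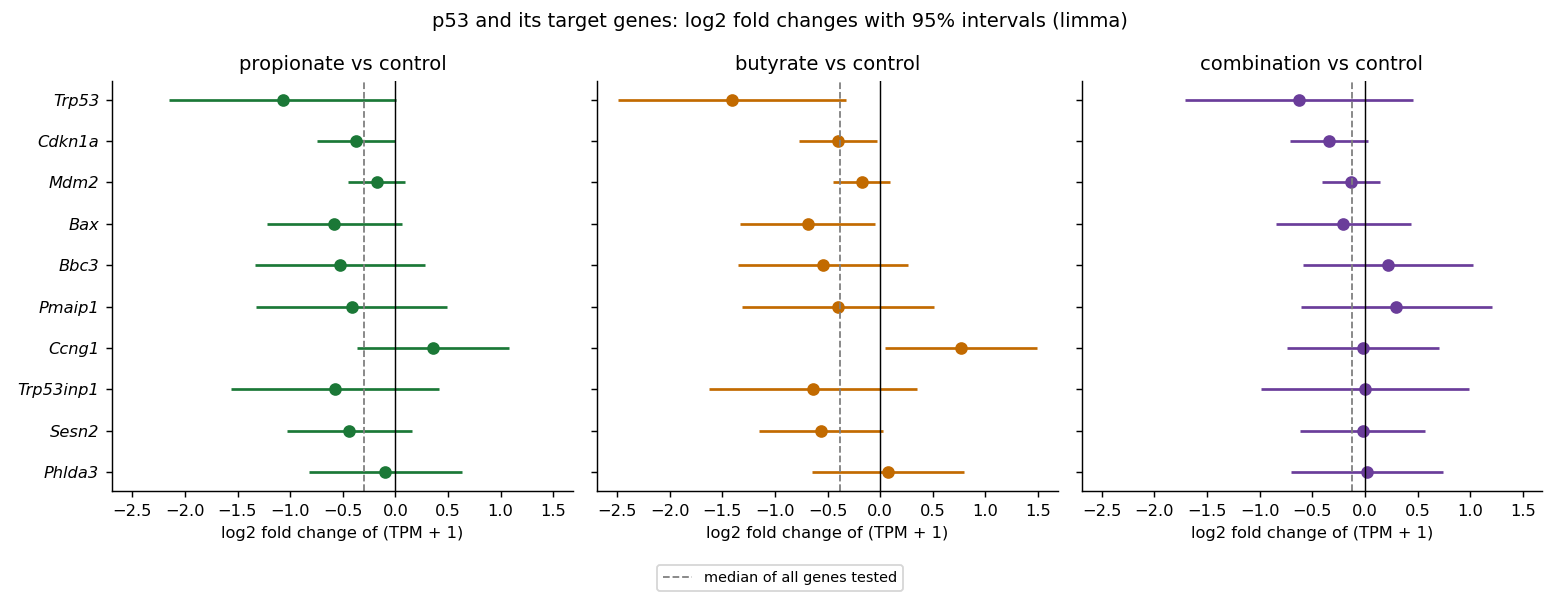
Log2 fold change of TPM + 1 (horizontal axes) for each of the 10 genes (rows) in propionate, butyrate and combination samples against control, with 95% intervals from limma; the dashed line is the median of all genes tested. Intervals that leave out 0 occur only for butyrate (Trp53, Cdkn1a, Bax and Ccng1), and no gene passed after adjustment over all genes.

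**Figure D4:**
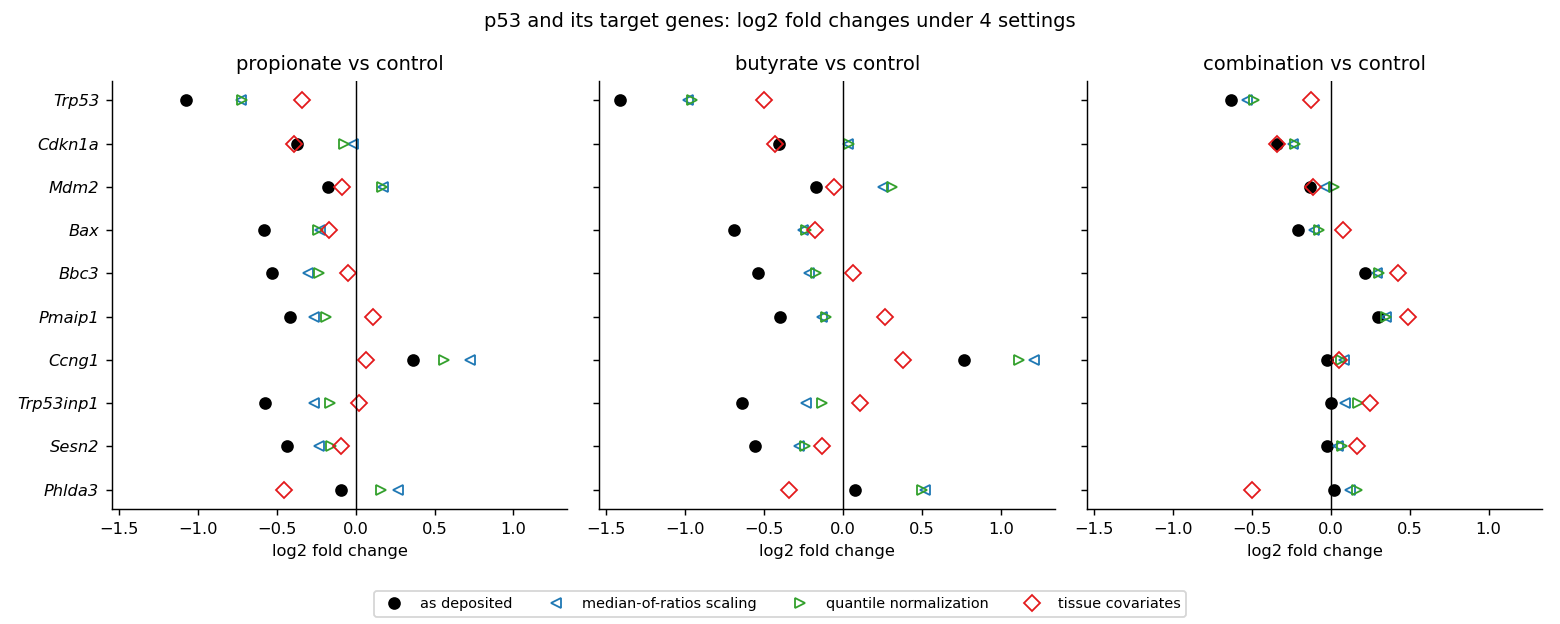
Log2 fold change against control of the 10 genes (rows) with TPM as deposited, after median-of-ratios scaling, after quantile normalization, and with muscle and mesothelium levels as covariates. The covariates bring Trp53 from -1.07 to -0.34 with propionate and from -1.41 to -0.50 with butyrate. Cdkn1a stays at -0.39 and -0.43 with these single acids under the covariates and is near 0 with either scaling. For the combination, Cdkn1a stays below 0 in every setting shown.

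The acids differ by 1 carbon in chain length, and butyrate is by far the better known inhibitor of histone deacetylases. Between butyrate and propionate samples, none of the 10 genes differed at an unadjusted p under 0.05, beside 0.706% of all genes, and the adjusted p was 1 for each. The labels give no doses, so it is not known whether the groups were matched. Cdkn1a differed by -0.03 (95% interval -0.41 to 0.34), which leaves room for a difference of up to about that size either way. The log2 difference was -0.34 for Trp53 (-1.42 to 0.74), 0.40 for Ccng1 (-0.32 to 1.13), -0.11 for Bax (-0.75 to 0.53) and 0.00 for Mdm2 (-0.27 to 0.28). It was -0.01 for Bbc3 (-0.82 to 0.80), 0.01 for Pmaip1 (-0.90 to 0.93), -0.07 for Trp53inp1 (-1.06 to 0.92), -0.12 for Sesn2 (-0.72 to 0.47) and 0.17 for Phlda3 (-0.55 to 0.90). For Mdm2 and Cdkn1a the interval stayed between -0.41 and 0.34, and for each of the other 8 genes it reached farther on at least 1 side.

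The combination was also set against each acid alone. Against propionate, 9 of the 10 genes were above 0, with log2 differences from -0.38 to 0.74 and a median of 0.40, where the median of all genes was 0.19, and none had an unadjusted p under 0.05, beside 8.86% of all genes in either direction. Trp53 differed by 0.44 ± 0.52 (adjusted p = 0.763) and Cdkn1a by 0.03 ± 0.18 (adjusted p = 0.955). Against butyrate, 8 of 10 were above 0, from -0.79 to 0.78, with a median of 0.51 beside 0.30 for all genes, and 1 gene, Ccng1, had an unadjusted p under 0.05, beside 15.5% of all genes. Ccng1 differed there by -0.79 ± 0.35 (adjusted p = 0.317), with a combination sample above a butyrate sample in 6 of 36 pairs. Trp53 differed by 0.78 ± 0.52 (adjusted p = 0.376) and Cdkn1a by 0.07 ± 0.18 (adjusted p = 0.807). The interaction asks whether adding butyrate to propionate did the same as butyrate alone. For Trp53 it was 1.85 ± 0.74 (95% interval 0.32 to 3.38, adjusted p = 0.128), for Bbc3 1.28 ± 0.55 (adjusted p = 0.128), for Ccng1 -1.15 ± 0.49 (adjusted p = 0.128) and for Cdkn1a 0.44 ± 0.25 (adjusted p = 0.184). At an unadjusted p under 0.05 there were 5 of the 10 genes, beside 35.7% of all genes. Without propionate sample 3, which has 335.82 TPM of Wt1, adjusted p was under 0.05 for 5 of the 10 genes (Trp53, Bax, Bbc3, Ccng1 and Sesn2) and for 5619 of all 15163 genes, so passing in that fit was not particular to the p53 genes. The interaction was then 2.19 for Trp53 (adjusted p = 0.0365), 1.52 for Bbc3 (adjusted p = 0.0385) and -1.34 for Ccng1 (adjusted p = 0.0404). The median interaction was 1.02 for the 10 genes and 0.62 for all genes. It was 0.34 for the 10 genes and 0.24 for all genes with the tissue covariates, under which the interaction of Trp53 was 0.71, that of Bbc3 0.41 and that of Ccng1 -0.39. After scaling by median of ratios the medians were 0.47 and 0.0477, and after quantile normalization 0.43 and -0.014. All 4 groups enter this contrast, so its value shares samples with each comparison above.

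No gene of 7 further lists around p53 passed the test against control over all genes, and each is described by its counts. Of all genes tested, 79.3%, 78.8% and 65.9% were below 0 in propionate, butyrate and combination samples, at medians of -0.30, -0.38 and -0.12. After quantile normalization these shares were 45.1%, 47.1% and 49.4%. Of 24 other p53 targets 22 were tested, with 19 of them below 0 in propionate, 18 in butyrate and 19 in combination samples, at medians of -0.33, -0.48 and -0.24. After quantile normalization 11, 13 and 15 of the 22 were below 0. The lowest p in propionate samples was that of Plk3, a stress kinase (-0.77 ± 0.30, adjusted p = 0.333), and in butyrate samples that of Ephx1, an epoxide hydrolase. Ephx1 averaged 37.0 ± 7.30 TPM in butyrate and 59.7 ± 14.6 TPM in control samples (SD, n = 6 each), a log2 difference of -0.67 ± 0.21 (adjusted p = 0.115). In combination samples, 2 of the 22 targets were above control at an unadjusted p under 0.05, beside 6.2% of all genes, and 1 was below, beside 4.1%. The one below was Aen, a nuclease of apoptosis, at -0.29 ± 0.11 (adjusted p = 0.359). Fas, the death receptor, averaged 12.8 ± 3.95 TPM in combination samples and 7.81 ± 1.35 TPM in control samples (SD, n = 6 each), higher in 35 of 36 pairs, with a log2 difference of 0.63 ± 0.16 (adjusted p = 0.208). Dram1, an autophagy regulator of lysosomes, averaged 18.8 ± 15.7 TPM in combination and 7.64 ± 2.52 TPM in control samples, a difference of 0.95 ± 0.31 (adjusted p = 0.292). Without combination sample 5, the library with high B and T cell levels, these were 0.49 for Fas and 0.63 for Dram1.

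Of 16 regulators of p53, all 16 were below 0 in propionate and in butyrate samples and 13 in combination samples. Their medians were -0.39, -0.54 and -0.16, and after quantile normalization 10, 11 and 9 were below 0. Most genes tested were below 0 as well, 79.3%, 78.8% and 65.9% in propionate, butyrate and combination samples. After quantile normalization 45.1%, 47.1% and 49.4% of all genes were. Ep300, the acetyltransferase that acetylates p53 and histones, was at -0.67 ± 0.32 with propionate, -0.90 ± 0.32 with butyrate and -0.60 ± 0.32 with the combination. Chek2, a DNA damage kinase, was at -0.97 ± 0.38, -0.98 ± 0.38 and -0.47 ± 0.38. Of the 6 other inhibitors of cyclin-dependent kinases, 5, 5 and 3 were below 0 in the 3 groups, and 2, 4 and 1 after quantile normalization. Cdkn2a was at -0.40 ± 0.31, -0.62 ± 0.31 and -0.20 ± 0.31. It averaged 0.55, 0.25 and 0.79 TPM in the acid groups and 0.97 TPM in control samples, levels at which log2(TPM + 1) understates differences. Cdkn1c went the other way, at 0.65 ± 0.40 with propionate and 0.63 ± 0.40 with the combination. With the tissue covariates Cdkn1c was at 0.20 and 0.26. Cdkn2c also lay above 0 with the combination, at 0.48 ± 0.42. Its difference was 0.50 with the tissue covariates and 0.17 without combination sample 5. Among the p53 paralogs, Trp63 was tested and Trp73 was below the filter. Trp63, a factor of stratified epithelium, averaged 4.65 ± 1.58 TPM in propionate samples and 2.89 ± 0.752 TPM in control samples (SD, n = 6 each), a log2 difference of 0.52 ± 0.21 (adjusted p = 0.333), with 0.42 ± 0.21 for butyrate and 0.39 ± 0.21 for the combination. Of 12 other BCL-2 family genes 11 were tested, and 10, 10 and 8 were below 0, at medians of -0.62, -0.80 and -0.16. With quantile normalization 10, 10 and 7 of them were below 0. Bcl2l1, which encodes the survival protein BCL-XL, was at -1.07 ± 0.53 with propionate and -1.38 ± 0.53 with butyrate. With the tissue covariates Bcl2l1 was at -0.33 and -0.47. All 15 cell cycle genes were below 0 in each acid group, at medians of -1.52, -1.66 and -1.04, with 11, 14 and 1 of them at an unadjusted p under 0.05, beside 9.13%, 35.1% and 4.1% of all genes lower at that level. Aurka, a mitotic kinase, was at -0.73 ± 0.28, -0.86 ± 0.28 and -0.61 ± 0.28. All 15 cell cycle genes stayed below 0 in each group after quantile normalization, at medians of -1.18, -1.26 and -0.90. With the muscle and mesothelium levels as covariates the medians of the cell cycle genes were -0.43, -0.38 and -0.18, and those of the 16 regulators -0.13, -0.18 and -0.0066. In that fit the medians of the 11 BCL-2 family genes were -0.0982, -0.11 and 0.14. For the combination, 1 of these 11 genes passed there, beside 279 of all genes. Without control sample 3, adjusted p was under 0.05 with butyrate for all 15 cell cycle genes, 11 of the 16 regulators, 10 of the 22 other targets and 6 of the 11 BCL-2 family genes, beside 5654 of all 15163 genes.

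Genes raised by butyrate or other deacetylase inhibitors in cultured cells served as a list beside Cdkn1a. Of 6, 5 were tested, and 2, 2 and 3 were above 0 in propionate, butyrate and combination samples, at medians of -0.31, -0.28 and 0.42. After quantile normalization the counts were 2, 3 and 3 and the medians -0.0485, 0.13 and 0.55. H1f0, which encodes the linker histone H1.0, averaged 90.7 ± 17.6 TPM in butyrate samples and 140 ± 51.6 TPM in control samples (SD, n = 6 each), a log2 difference of -0.55 ± 0.29 (adjusted p = 0.168, and 0.0385 without control sample 3). Clu, which encodes clusterin, was at -1.33 ± 0.61 with butyrate (adjusted p = 0.128, and 0.0351 without control sample 3). With the tissue covariates the differences for butyrate were -0.0289 for H1f0 (adjusted p = 0.906) and -0.32 for Clu (adjusted p = 0.47). Txnip, which encodes an inhibitor of thioredoxin and of glucose uptake, was at 354, 451 and 652 TPM in combination samples (lowest, median and highest), against 168, 302 and 353.78 TPM in control samples. Its groups do not overlap, by a margin of less than 1 TPM. How many of all genes tested are free of overlap in this comparison was not counted. The log2 difference of Txnip was 0.81 ± 0.23 for the combination (adjusted p = 0.239), 0.41 ± 0.23 for propionate and 0.28 ± 0.23 for butyrate. Gsn, which encodes the actin-severing protein gelsolin, averaged 1173 ± 454 TPM in combination samples and 680 ± 222 TPM in control samples, a difference of 0.76 ± 0.27 (adjusted p = 0.337). With the tissue covariates the differences for the combination were 0.68 for Txnip and 0.35 for Gsn (adjusted p = 0.171 and 0.48). Without combination sample 5 they were 0.71 for Txnip and 0.59 for Gsn.

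Single transcript rows add detail for Trp53. It has 6 rows in the table, and its largest row held a median of 73.0% of its TPM and led in 21 of 24 libraries. In the other 3 another row led. In combination sample 4 that row was at 45.36 TPM and the usual one at 0.35 TPM. In butyrate sample 1 the values were 6.46 and 0.70 TPM, and in propionate sample 2 they were 6.63 and 3.42 TPM. The summed level of combination sample 4, 54.01 TPM, lay within the range of the other Wt1-rich libraries. The rows carry no transcript names, so the isoforms cannot be named, and an estimate that moves reads between overlapping transcripts cannot be told apart from a switch of isoform. For Cdkn1a, 1 of 5 rows held 88.7% to 98.6% of the level in every library. For Mdm2, 1 of 9 rows held 57.5% to 83.8%, and for Bax 1 of 6 rows 74.1% to 88.1%.

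**Figure D5:**
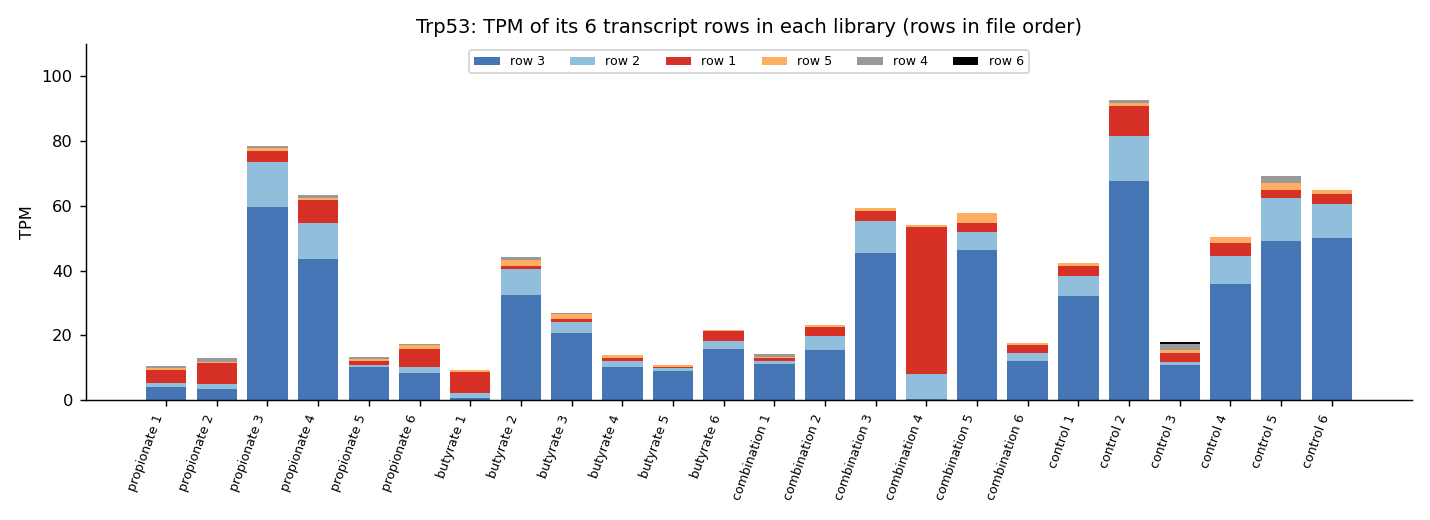
TPM of the 6 Trp53 transcript rows, stacked, in each of the 24 libraries (horizontal axis, by group and replicate; rows in file order). The row that leads in 21 libraries is nearly absent from combination sample 4, at 0.35 TPM, where another row is at 45.36 TPM.

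The genes most like Cdkn1a and Trp53 were found by the root mean square difference of log2(TPM + 1), centred on the mean of the 24 libraries, among all genes tested. For Trp53 they were Vps37b (0.135), Cerk (0.147), Ptbp1 (0.149), Edem2 (0.152) and Lrrk1 (0.160), where the SD of Trp53 itself was 1.04. The nearest of the other 9 genes was Trp53inp1 at 0.437, in rank 1720. For Cdkn1a they were Diaph1 (0.206), 2900026A02Rik (0.218), Tiam2 (0.226), Psmd11 (0.241) and Utp11 (0.243), beside an SD of 0.33, so the likeness is weak. Mdm2 came in rank 1130 for Cdkn1a, at 0.351, and Trp53 in rank 13461, at 0.976. The SDs of 0.33 and 1.04 alone keep these 2 genes apart by this measure, so their rank does not show that the profiles are unlike. The libraries share their tissue make-up, and no test was made on these likenesses.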

How the data were processed

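RNA of 24 mouse peritoneal metastasis samples was measured, 6 per group. TRIzol was used for the extraction, per the labels' protocols, and a sequencing company made the libraries. The submitters' processing notes list fastp, HISAT2 and StringTie, without versions, and mm39 as the mouse build. No source used here gives the annotation. The authors deposited TPM for 149132 transcripts, of which 1001 have no gene name (0.174% to 0.470% of a library's TPM). Each column sums to between 999999 and 1000001, so TPM are shares of a fixed total.

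From these values, rows were summed by gene name and log2(TPM + 1) was fitted with limma 3.58.1 (intensity trend, robust) in R 4.3.3, all 24 libraries in 1 fit, for the 15163 genes with at least 1 TPM in at least 6 libraries. Tests were two-sided, with Benjamini-Hochberg adjustment over all genes at 0.05. The code was tested on simulated data. A separate permutation test for genes below the filter was not needed, because all 10 passed. Named from each list are the 3 tested genes of smallest p per comparison with control, or fewer. The 10 genes and all lists were chosen with earlier results of these data known. No label says that the numbers in the sample titles or library names pair the samples, and same-numbered samples did not all deviate together, so the samples were not treated as paired. Promoter windows come from RefSeq on GRCm38.p6, which is not the build of the deposited table, so none of its coordinates was joined to TPM. Alternatives tried were a pseudocount of 0.1, no filter, a filter of 5 TPM, 2 other scalings, other moderation, weights per library, only the groups compared, 2 replicate blocks, tissue covariates, and leaving out each library.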

Additional observations from a re-analysis of the deposited data

Results flagged for a closer look

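Phlda3 gave the 3 values that stood far from the others of their group among the 40 sets of 6 samples examined (10 genes in 4 groups). Propionate sample 2 was at 149.1 TPM, with a gap to the next sample of 0.729 of the group's whole range. Butyrate sample 6 was at 115.47 TPM, with a gap of 0.664 of the range. Control sample 3 was at 184.06 TPM, with a gap of 0.880. Each gap exceeds Dixon's critical value for 6 samples at the 95% level, which chance alone passes in about 1 of 20 groups. Wt1 was at 2.58, 27.97 and 0.65 TPM in these 3 samples, each outside the 10 Wt1-rich libraries.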

How the results depend on the processing

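Counts of genes passing the adjusted threshold, 0 of the 10 genes and 0 of all genes in each comparison, moved in few settings. Weights per library gave the most: 9 of the 10 genes with propionate, 9 with butyrate, 1 with the combination (Trp53), 4 for combination against propionate and 8 for the interaction, and 11434, 10256, 5786, 5026 and 10982 genes in all, with 572 for combination against butyrate. These weights gave propionate sample 5 a weight of 6.76 and sample 3 of the same group 0.127, so they rest on few libraries. Tissue covariates gave 279 genes in all for the combination against control and 18 for combination against propionate. Combination against control gave 35 genes in all after scaling by median of ratios and 41 after quantile normalization. Leaving out 1 library each, the genes called ranged from 0 to 3 of 10 and 0 to 5654 of all genes for butyrate (without control sample 3: Trp53, Bax and Ccng1), 0 to 5 and 0 to 5619 for the interaction (without propionate sample 3), 0 to 2 of all genes for the combination against control and 0 to 1 for combination against butyrate. The causes were not tested. The interaction could not be run with only the groups compared.

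The samples were not treated as paired, because no label says that a number marks a shared batch and not all same-numbered pairs deviated together: 16 of 36 same-numbered pairs by title correlated above 0.1, and 18 of 27 by library number. The replicate block by title number gave 0 of the 10 genes in each comparison. The replicate block by library number gave 4 with butyrate (Trp53, Bax, Trp53inp1 and Sesn2), 5 for the interaction, and 7903, 5426 and 5 genes in all for butyrate, the interaction and combination against butyrate. Whether the library numbers mark a batch was not tested.

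Apart from single libraries, 65 fold changes turned sign, all from values that had not passed, 1010 kept sign and call, and 95 kept the sign and passed. The cause was not tested. After scaling by median of ratios, for propionate Mdm2, Phlda3 and Cdkn2d were 0.17, 0.27 and 0.16, and for butyrate Cdkn1a, Mdm2, Rchy1 and Cdkn2d were 0.0295, 0.25, 0.0342 and 0.0806. Also for the combination Ccng1 and Sesn2 were 0.0841 and 0.0474, and for butyrate against propionate Cdkn1a, Bbc3 and Trp53inp1 were 0.0433, 0.0856 and 0.0259. Also for combination against propionate Cdkn1a was -0.22, and for combination against butyrate Cdkn1a was -0.26. Also for the interaction Cdkn1a was -0.25. Under quantile normalization, for propionate Mdm2, Phlda3 and Cdkn2d were 0.17, 0.16 and 0.22, and for butyrate Cdkn1a, Mdm2, Rchy1 and Cdkn2d were 0.0397, 0.31, 0.039 and 0.18. Also for the combination Mdm2, Ccng1 and Sesn2 were 0.0182, 0.0654 and 0.07, and for butyrate against propionate Cdkn1a, Bax, Bbc3 and Trp53inp1 were 0.12, 0.0035, 0.0595 and 0.0241. Also for combination against propionate Cdkn1a was -0.15, and for combination against butyrate Cdkn1a was -0.26. Also for the interaction Cdkn1a was -0.19. With weights per library, for propionate Phlda3 was 0.20, and for the combination Bbc3, Pmaip1, Ccng1 and Trp53inp1 were -0.17, -0.33, 0.39 and -0.68. Also for butyrate against propionate Trp53, Mdm2, Bax, Bbc3, Trp53inp1 and Sesn2 were 0.14, -0.0169, 0.25, 0.24, 0.26 and 0.24. With tissue covariates, for propionate Pmaip1, Trp53inp1 and Cdkn2a were 0.11, 0.0206 and 0.0059, and for butyrate Bbc3, Pmaip1, Trp53inp1 and Phlda3 were 0.0609, 0.27, 0.11 and -0.34. Also for the combination Bax, Ccng1, Sesn2, Phlda3, Chek1, Cdkn2a and Bak1 were 0.079, 0.0509, 0.17, -0.50, 0.0098, 0.0391 and 0.0931, and for butyrate against propionate Bbc3 and Trp53inp1 were 0.11 and 0.089. At a pseudocount of 0.1, for the combination Trp53inp1 was -0.0077, and for butyrate against propionate Bbc3 was 0.0577. Under the replicate block by library number, for the combination Trp53inp1 was -0.14, and for butyrate against propionate Cdkn1a, Mdm2 and Pmaip1 were 0.0763, -0.092 and -0.30.

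Leaving out 1 library turned the sign in 62 cases, all of values that had not passed, kept sign and call in 1273, and let 21 pass. For propionate the range was -0.35 to 0.20 for Phlda3. For butyrate the range was -0.0689 to 0.37 for Phlda3. For the combination the ranges were -0.0231 to 0.40 for Bbc3, -0.20 to 0.31 for Ccng1, -0.28 to 0.23 for Trp53inp1 and -0.16 to 0.0972 for Sesn2. For the combination the range was -0.18 to 0.32 for Phlda3. For butyrate against propionate the ranges were -0.58 to 0.0007 for Trp53, -0.14 to 0.0751 for Cdkn1a, -0.058 to 0.0598 for Mdm2 and -0.25 to 0.0827 for Bax. For butyrate against propionate the ranges were -0.18 to 0.23 for Bbc3, -0.17 to 0.24 for Pmaip1, -0.33 to 0.21 for Trp53inp1 and -0.25 to 0.0869 for Sesn2. For combination against propionate the range was -0.0556 to 0.14 for Cdkn1a. For combination against butyrate the range was -0.0352 to 0.17 for Cdkn1a.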

Other observations

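Cdkn1a RNA in 12 acid-treated libraries outside the Wt1-rich ones and outside combination sample 5 was at 23.4 to 50.87 TPM, beside 51.6 TPM in the 1 control library of that kind. Wrap53, a neighbour of Trp53, was at 2.4, 3.36 and 6.17 TPM in propionate samples (lowest, median and highest). It was at 2.27, 2.78 and 3.45 TPM in butyrate samples and at 2.84, 3.90 and 8.17 TPM in combination samples. Control samples were at 3.3, 5.1 and 6.86 TPM. Trp53-ps, a pseudogene of Trp53, was listed at 0 in all 24 libraries.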
